A study of Homo sapiens with 2 samples.

Results

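The data described here are the transcript counts of 10 axon growth genes, the stathmins STMN1, STMN2, STMN3 and STMN4 together with GAP43, BASP1, MAP1B, DCX, CRMP1 and DPYSL3, in single SH-SY5Y cells. The genes were chosen by name for their known roles in growing neurites, and they are 10 of the 33538 gene identifiers in the count table. SH-SY5Y (SY5Y) is an established human neuroblastoma line of the adrenergic, neuroblast-like kind. The cells were untreated, were not synchronized and carried no added construct. A culture was divided over 2 flasks, SplitA (Hashtag-1) and SplitB (Hashtag-2), each flask was marked with its own hashtag antibody, and both were pooled into 1 droplet experiment with an mRNA library and a hashtag library. The flasks are therefore parallel cultures of the same line, and the labels give the split of both hashtags the same number, so the letters A and B come from the study's text.

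A cell was kept if 1 hashtag count was at least 3 times the other, the other did not exceed the limit set in the study's supplementary code, and at least 1000 genes had a unique molecular identifier (UMI), which stands for 1 captured transcript. This left 899 SplitA cells and 1195 SplitB cells of 2879, with median depths of 6063 and 6346 UMIs per cell and totals of 5852780 and 8066440 UMIs. Adrenergic markers were present throughout, and 7 of them, among them PHOX2A, HAND2, GATA3 and DBH, summed to a level of 2180 CPM (UMIs per 1000000 UMIs) in SplitA and 2110 in SplitB. TH, which makes the first step of catecholamine synthesis, had only 9 UMIs in each flask. Leukocyte markers were at 0 for 3 of 3 genes, the fibroblast markers COL1A2 and DCN and the Schwann cell factor SOX10 were also at 0, and the 6 mesenchymal-type markers summed to 121 and 152 CPM, nearly all of it VIM.

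Stathmins bind free tubulin dimers and promote the shrinking of microtubules, and phosphorylation switches them off. STMN1 acts in dividing as well as in neuronal cells and lets the mitotic spindle form when it is phosphorylated, whereas STMN2 (SCG10), STMN3 (SCLIP) and STMN4 (RB3) are membrane-anchored and are used as neuronal markers. GAP43 and BASP1 are acidic membrane proteins of the growth cone that gather phosphoinositides and steer actin, MAP1B and DCX (doublecortin) stabilize the microtubules of the growing axon, and CRMP1 and DPYSL3 (CRMP4) are collapsin response mediator proteins that carry semaphorin signals to the cytoskeleton. In the developing nervous system most of these genes are raised as neuroblasts leave the cell cycle and extend processes, and the comparisons made here ask how far they move together and with the cycle in a growing culture.

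In the GRCh38 annotation (GENCODE), STMN1 (ENSG00000117632) lies on the minus strand of chromosome 1 from 25884181 to 25906991. STMN2 (ENSG00000104435) lies on the plus strand of chromosome 8 from 79611117 to 79666158, and STMN4 (ENSG00000015592) on the minus strand of the same chromosome from 27235308 to 27258420. STMN3 (ENSG00000197457) is on the minus strand of chromosome 20 from 63639705 to 63657682. Of the others, GAP43 spans 115623510 to 115721490 on chromosome 3 (plus strand), CRMP1 spans 5748084 to 5893086 on chromosome 4 (minus strand), and DCX spans 111293779 to 111412429 on chromosome X (minus strand). Chromosome 5 holds BASP1 from 17065598 to 17276843 (plus strand), MAP1B from 72107234 to 72209565 (plus strand) and DPYSL3 from 147390808 to 147510068 (minus strand). No other counted gene overlaps any of the 10 on its own strand.

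Levels spanned a wide range, from STMN1, among the most abundant transcripts of these cells, to DCX, which was found in few of them. Levels are given in CPM. Each UMI tags a transcript end, so these values are not divided by transcript length, and they count molecules captured. STMN1 stood at 1105 in SplitA and 1088 in SplitB, rank 128 of all gene identifiers by mean UMIs per cell. STMN2 followed with 708 and 677 and MAP1B with 361 and 374, and these 3 genes gave 83.3% and 83.8% of all UMIs of the 10 genes. CRMP1 with 102.3 and 107 and STMN3 with 95.2 and 89.4 came next, and their order relative to each other did not hold beyond counting error in SplitA, where the 95% Poisson intervals were 94.3 to 111 and 87.4 to 103.

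GAP43 stood at 63.6 and 59.9, BASP1 at 61.7 and 54.8, and STMN4 at 59.8 and 56.7, so the 2 growth cone proteins and the least abundant stathmin did not differ from each other beyond their counting intervals in either flask. DPYSL3 was lower at 33.5 and 27.9, and DCX lowest at 19.0 and 17.2. The intervals of DPYSL3 (24.4 to 31.8) and DCX (14.5 to 20.4) did not overlap in SplitB, nor did they in SplitA.

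The 2 flasks were close for all 10 genes. The log2 difference SplitA minus SplitB ran from -0.06 for CRMP1 to 0.26 for DPYSL3, and 0 of the 10 genes differed by 0.32 or more on that scale. Among the 5722 genes with at least 0.1 UMI per cell, 3.72% did. Only for STMN2 did the counting interval of the difference, 0.01 to 0.12 on the log2 scale, exclude 0. With 1 flask against 1 flask there is no test of this difference, and the intervals cover counting error only.

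**Figure D1:**
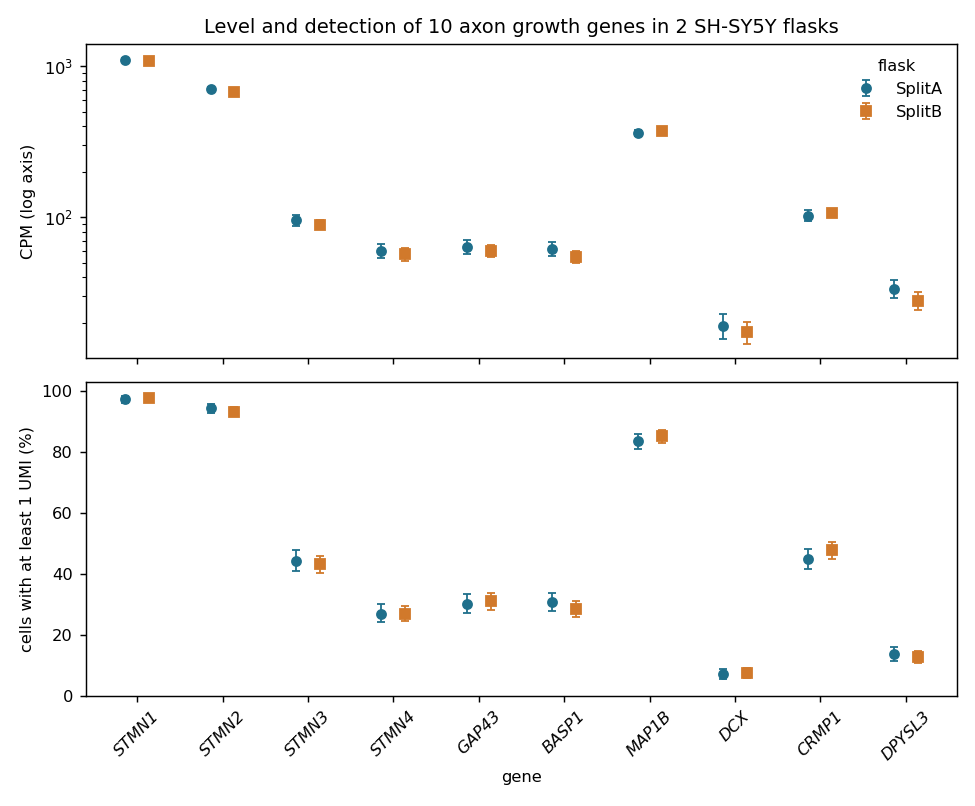
Level of each gene in CPM on a log axis (upper) and the share of cells with at least 1 UMI (lower), for SplitA (circles) and SplitB (squares), with 95% Poisson and exact binomial intervals. The flasks lie on top of each other for nearly every gene, from STMN1 at 1105 and 1088 down to DCX, which had a UMI in 7.12% and 7.45% of cells.

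Detection followed level. STMN1 had a UMI in 97.2% of SplitA cells and 97.5% of SplitB cells, STMN2 in 94.3% and 93.2%, and MAP1B in 83.5% and 85.2%. The next group, CRMP1 and STMN3, was found in 43.2% to 47.7% of cells, and GAP43, BASP1 and STMN4 in 27.0% to 31.0%. DPYSL3 was found in 13.8% and 12.7%. Sampling with a single proportion for every cell would give STMN3 in 44.5% and 43.6% of cells, as was seen, but would give DCX in 11.5% and 10.9% and DPYSL3 in 19.2% and 16.9%, more cells than had them. STMN1, STMN2, MAP1B and STMN4 also fell short beyond their binomial intervals in both flasks, with 31.4% and 30.9% for STMN4 under such sampling. The pool holds no cell type that lacks these genes, so the share that free RNA in the droplets gives was not measurable. With each cell thinned to 2000 UMIs, which left out 3 cells, the shares ran from 82.9% and 82.3% for STMN1 to 2.45% and 2.77% for DCX.

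Of the 10 genes STMN1 had the largest variance relative to counting noise. Its variance over cells was 3.39 and 3.52 times that of Poisson sampling at each cell's depth, rank 58 and 60 among 1392 genes with at least 0.5 UMI per cell, whose median was 1.18 and 1.19. STMN2 came next with 2.50 and 2.57 times and MAP1B with 2.01 and 2.06. STMN3, with 1.03 and 1.11, and CRMP1, with 1.12 and 1.10, were below that median. Among the rarer genes, STMN4 (1.80 and 1.83) and DCX (1.86 and 1.55) stood above GAP43 (1.42 and 1.41), DPYSL3 (1.36 and 1.35) and BASP1 (1.22 and 1.20). The ratio grows with abundance, so it compares genes of like level. The spread beyond counting as a share of the mean, a coefficient of variation, ordered them otherwise, with 0.53 and 0.54 for STMN1, 1.09 and 1.07 for STMN4, 1.95 and 1.68 for DPYSL3, and 3.64 and 2.75 for DCX. A single cell held up to 11 DCX UMIs in SplitA and 6 in SplitB, and up to 6 and 11 of the more abundant STMN3.

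Cycle phase was called from genes other than these 10, by the usual Seurat scores over 42 S genes and 52 G2M genes that were found in the table. SplitA gave 369 G1, 276 S and 254 G2M calls, and SplitB gave 505, 348 and 342. These are calls from RNA in an unsynchronized culture, and a G1 call also covers cells that score low for both lists. The cells were harvested at high confluence, which the study takes to mean a lower growth rate. Counts were summed per flask and phase into 6 sums, and the phases were compared with edgeR's quasi-likelihood test with the flask as a block over 10521 genes, with Benjamini-Hochberg adjustment. The fit rescales the sums by factors from 0.949 to 1.04 (TMM), and the CPM printed do not, so log2 changes from the fit differ somewhat from those of the CPM. The block takes out a difference between flasks that all phases share, and the spread that remained was close to counting noise. The p-values therefore set a phase difference against its spread over 2 parallel flasks, and not over independent cultures.

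The 2 leading stathmins moved in opposite directions along the cycle. STMN1 stood at 795 CPM in G1 cells of SplitA, 1254 in S and 1359 in G2M, and at 806, 1268 and 1313 in SplitB. STMN2 stood at 922, 629 and 513 in SplitA and at 852, 611 and 496 in SplitB. In both flasks every G1 value of STMN1 lay below, and every G1 value of STMN2 above, the values of the dividing phases.

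STMN1 rose from G1 to S by 0.57 on the log2 scale (SE 0.04, adjusted p = 4.37e-22) and from G1 to G2M by 0.61 (SE 0.04, adjusted p = 9.92e-25). STMN2 had a log2 change of -0.60 in S (SE 0.04, adjusted p = 4.53e-20) and -0.93 in G2M (SE 0.04, adjusted p = 2.39e-30) against G1, and it fell again from S to G2M, by 0.33 (adjusted p = 2.03e-07). With cells thinned to 2000 UMIs and phases called again, the changes in S were smaller, 0.29 for STMN1 and -0.39 for STMN2, and still passed. STMN1 did not pass the test between S and G2M, at 0.05 (adjusted p = 0.501). There were 0.863 STMN1 UMIs for each STMN2 UMI in G1 cells of SplitA, 1.99 in S and 2.65 in G2M, and 0.945, 2.08 and 2.65 in SplitB. A G1-called cell thus held about as many transcripts of the neuronal stathmin as of STMN1, and a G2M-called cell held far more STMN1.

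DCX and DPYSL3 were higher in G1 than in S. DCX stood at 29.7, 10.2 and 13.5 CPM in G1, S and G2M of SplitA, from 69, 17 and 25 UMIs, and at 24.6, 11.6 and 12.3 in SplitB. Its log2 change was -1.37 in S (SE 0.23, adjusted p = 2.59e-06) and -1.18 in G2M (SE 0.22, adjusted p = 8.14e-06). The DESeq2 Wald test on the same sums kept the first call and left the second at an adjusted p of 0.0596. After thinning the log2 change in G2M was -2.005. DCX UMIs were concentrated in few cells, since 22 SplitA and 30 SplitB cells held 62.2% and 57.6% of them. The p-values come from sums over cells and do not cover this spread between cells.

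DPYSL3 stood at 40.0, 26.4 and 31.7 in SplitA and at 32.3, 16.0 and 32.7 in SplitB. It fell by 0.89 from G1 to S (SE 0.19, adjusted p = 0.000174), a call that the DESeq2 test lost (adjusted p = 0.145). From S to G2M it had a log2 change of 0.62 that passed narrowly (adjusted p = 0.0456), and 8 of 9 alternative settings with a test lost the call, with adjusted p between 0.0556 and 0.975. Without the flask as a replicate block the adjusted p was 0.0556. The change was 0.22 in SplitA and 0.96 in SplitB.

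GAP43, unlike DCX and DPYSL3, was higher in S than in G1. It stood at 55.9, 81.4 and 57.0 in SplitA and at 51.9, 68.6 and 62.9 in SplitB, and rose by 0.38 from G1 to S (SE 0.13, adjusted p = 0.022). Neither thinning the cells (adjusted p = 0.462) nor the DESeq2 test (adjusted p = 0.593) kept this call.

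The other 5 genes passed in none of the 3 comparisons. MAP1B stood at 343, 351 and 393 CPM in G1, S and G2M of SplitA and at 351, 374 and 404 in SplitB, with a log2 difference of 0.08 between G2M and G1 (adjusted p = 0.269), although after thinning the difference was 0.27 with an adjusted p of 0.0264. CRMP1, STMN3 and BASP1 had log2 differences between -0.12 and 0.14 throughout. STMN4 was uneven between flasks, with 0.75 in SplitA and -0.08 in SplitB from G1 to S, and the combined difference of 0.27 did not pass (adjusted p = 0.187).

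**Figure D2:**
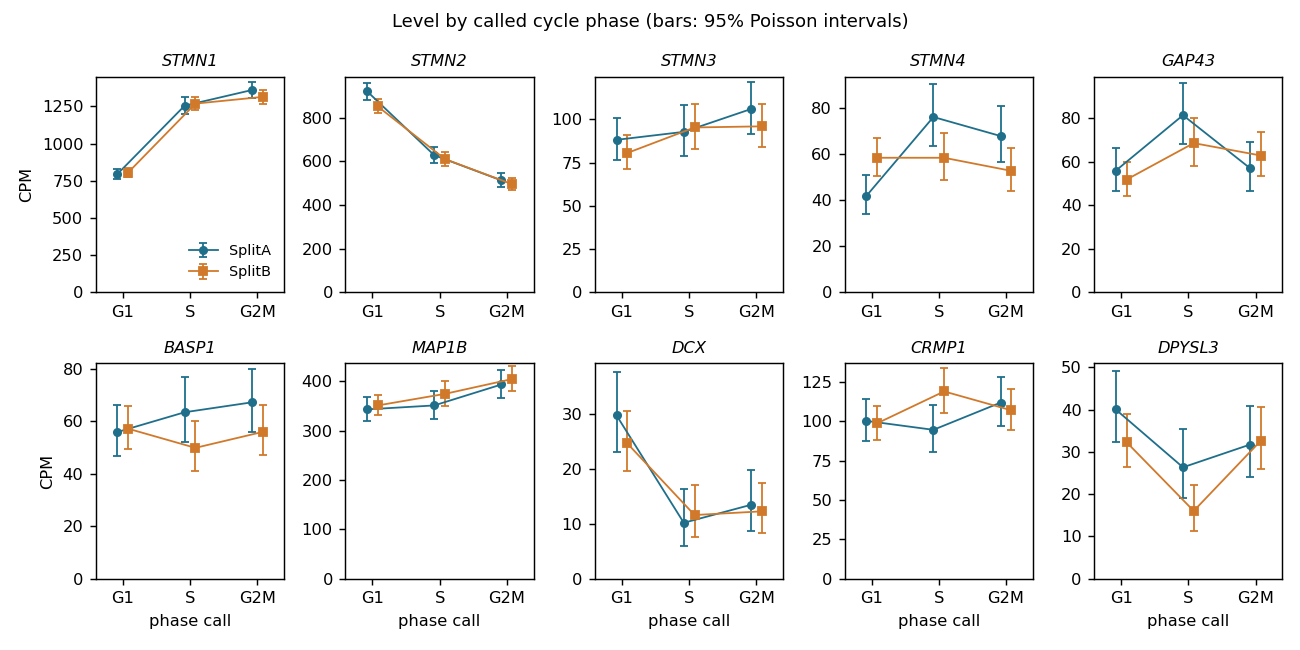
Level of each gene in CPM in cells called G1, S and G2M, for SplitA (circles) and SplitB (squares), with 95% Poisson intervals and axes from 0. STMN1 climbs from 795 and 806 to 1359 and 1313 while STMN2 drops from 922 and 852 to 513 and 496, DCX is highest in G1, and CRMP1, STMN3, BASP1 and MAP1B stay nearly level.

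In counts, 2 of the 10 genes were higher and 3 lower in S than in G1, where 10.5% of all genes tested were higher and 9.42% lower. Between G2M and G1, 1 was higher (15.2% of all genes) and 2 lower (15.1%). Between G2M and S, 1 was higher (3.77%) and 1 lower (3.68%). The median log2 difference over the 10 genes was 0.01 in S and 0.03 in G2M against G1, and over all genes it was -0.001 and 0.03. The medians lay beside those of all genes, and the calls pointed both ways.

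Depth differed with phase, since G2M cells had medians of 7077.5 and 6969 UMIs against 5830 and 6130 in G1, whereas S cells, with 5792.5 and 6090.5, were as deep as G1 cells. Within each flask the cells were therefore divided into 3 classes of UMI total. STMN1 was higher in S and in G2M than in G1 in 6 of 6 classes, by 0.31 to 1.15 on the log2 scale, and STMN2 was lower in 6 of 6, with log2 differences between -0.84 and -0.35. These are differences of CPM without the rescaling of the edgeR fit, so their sizes are not directly comparable with its changes. DPYSL3 was lower in S than in G1 in 6 of 6 classes, with log2 differences between -2.89 and -0.36. The first of these rests on 2 UMIs in S cells of the shallowest SplitB class. GAP43 was higher in 6 of 6, by 0.17 to 0.78, with overlapping counting intervals of G1 and S in each class. The classes divide the same cells, so they are no separate evidence for these calls. In the deepest class, which held most DCX UMIs, DCX stood at 53.0, 14.8 and 17.4 CPM in G1, S and G2M cells of SplitA and at 35.9, 18.9 and 12.3 in SplitB. It was highest in G1 in the middle class too, with 21.4, 1.71 and 8.80 in SplitA and 15.9, 1.39 and 10.8 in SplitB. In the shallowest class it was not, with 3.42 in G1 and 14.7 in S of SplitA, from 2 and 6 UMIs, and 14.3, 11.5 and 15.7 in G1, S and G2M of SplitB.

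Depth itself moved with the levels. In the shallowest class STMN1 stood at 1513 in SplitA and 1477 in SplitB, and in the deepest at 875 and 866. STMN2 went from 899 and 818 to 593 and 580, and MAP1B from 529 and 530 to 316 and 314. DCX and DPYSL3 went the other way, DCX from 6.73 and 13.7 to 28.6 and 23.2, and DPYSL3 from 16.8 and 18.6 to 47.7 and 34.2. The part of cell size, RNA quality or capture in this order was not tested.

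The upstream sequences of STMN1 and DPYSL3 are shown because the 2 genes moved in opposite directions in S, and because both hold a motif of the kind that E2F factors, which switch on S phase genes, are known to bind. The motif was searched as TTTCCCGC, TTTCGCGC, TTTGCCGC or TTTGGCGC on both strands in the 250 bases before each annotated start, in RefSeq promoters of GRCh38.p14. It was present in 979 of 35116 promoters (2.79%), and in 3 of the 17 promoters listed for 8 of the 10 genes, 2 of STMN1 and 1 of DPYSL3. Both sequences are read from the minus strand, 5′ to 3′, with the motif in capitals. The STMN1 stretch is chr1:25906440-25906669, precedes a RefSeq start that lies inside the span of the gene given above, and leaves out the 20 bases next to that start, and the DPYSL3 stretch is chr5:147510069-147510318 and runs up to the start, with the motif on its opposite strand.
STMN1: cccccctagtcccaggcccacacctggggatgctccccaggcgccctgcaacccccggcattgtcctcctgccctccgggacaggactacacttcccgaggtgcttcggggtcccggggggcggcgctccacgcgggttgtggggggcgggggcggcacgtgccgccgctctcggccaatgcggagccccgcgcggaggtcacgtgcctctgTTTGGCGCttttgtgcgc
DPYSL3: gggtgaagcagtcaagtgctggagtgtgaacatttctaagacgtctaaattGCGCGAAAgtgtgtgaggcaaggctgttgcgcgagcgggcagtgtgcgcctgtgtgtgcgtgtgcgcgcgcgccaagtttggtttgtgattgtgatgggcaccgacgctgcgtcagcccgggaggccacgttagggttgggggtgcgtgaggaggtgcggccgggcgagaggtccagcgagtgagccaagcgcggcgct
The other STMN1 motif, TTTCCCGC, is not shown and lies 250 to 243 bases before the outermost RefSeq start of the gene. The motif shown for STMN1 lies 38 to 31 bases before its start and the DPYSL3 motif 199 to 192 bases before it. A match describes the letters of these windows and is not a measured binding site.

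Over single cells the counts of the 10 genes were only weakly correlated, with counting noise not removed. For each cell and gene the UMI count was compared with the count that a single proportion and the cell's UMI total would give, and Pearson's r of these residuals was taken over the 899 and the 1195 cells of each flask, which share library and RNA pool. The median r of the 45 pairs was 0.05 in SplitA and 0.04 in SplitB, where the median over pairs of 5712 genes was 0.002 and 0.003. A value of 0.1 or more was reached by 9 pairs (20%) and 8 pairs (17.8%), against 1.41% and 1.03% of all pairs. The 5712 genes were those outside the 10 with at least 0.1 UMI per cell, not matched to the 10 in level. STMN1, STMN2 and MAP1B ranked 128, 178 and 289 by level, and abundant genes can reach a larger r. The first principal component of the 10 genes held 15.3% and 15.1% of the variance of their residuals and the second 13.6% and 12.3%. Counting noise is part of that variance and lowers r, so these shares cannot decide whether the genes have a common axis.

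Values of this size in sparse counts are given as descriptions. Ordered by the smaller of the 2 flasks' values, DCX with DPYSL3 came first, at 0.27 in SplitA and 0.16 in SplitB, before STMN1 with GAP43 (0.15 and 0.13) and STMN1 with MAP1B (0.11 and 0.14). With counting noise taken out of the variances, these pairs stood at 0.565 and 0.351, 0.382 and 0.341, and 0.227 and 0.291. On that scale STMN1 had -0.234 and -0.164 with DCX, and 0.021 and -0.017 with STMN2. Such values were unstable for STMN3, which reached 1.206 with MAP1B in SplitA, outside the range of an r. Within a flask the order differed, since STMN3 with MAP1B was highest in SplitB (0.17, against 0.09 in SplitA) and STMN1 with STMN4 was second in SplitA (0.17, against 0.07 in SplitB). The r of STMN1 was -0.11 and -0.07 with DCX and -0.12 and -0.05 with DPYSL3, and the second component set STMN1 against DCX, DPYSL3 and STMN2 in both flasks. STMN1 and STMN2, the most abundant members of the same family, had an r near 0 over all cells (-0.003 and -0.007). Within cells of the same phase call it was above 0 each time, from 0.04 in S cells of SplitB to 0.23 in G2M cells of SplitA. The residuals of both genes were lower in deeper cells, and the part of depth in the values within phases was not tested. With UMI total, ribosomal share and mitochondrial share regressed out over all cells, the r of STMN1 with STMN2 was -0.08 and -0.09.

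**Figure D3:**
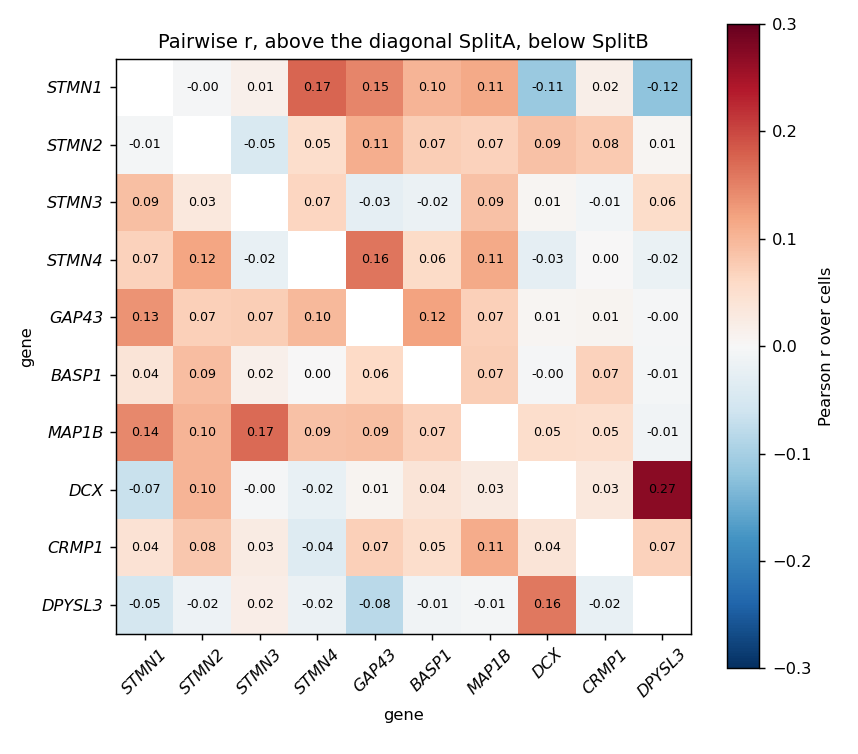
Pearson's r of the residuals for each pair of genes over cells, with SplitA above the diagonal and SplitB below, on a color scale from -0.3 to 0.3. Most cells of the map lie near 0, the warmest is DCX with DPYSL3 in SplitA (0.27) and STMN3 with MAP1B in SplitB (0.17), and STMN1 is cool against DCX and DPYSL3.

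Ranking cells by the other 9 genes showed the link in levels. From the lowest to the highest quartile of the other 9, STMN4 went from 37.8 to 96.9 CPM in SplitA and from 38.3 to 79.2 in SplitB, GAP43 from 37.1 to 95.3 and from 38.2 to 83.4, and MAP1B from 289 to 455 and from 279 to 477. Relative to level the steps were smaller for STMN1, from 997 to 1224 and from 967 to 1187. They were smaller too for STMN2, from 696 to 800 and from 601 to 813, with 629 in quartile 2 of SplitA. DCX went from 8.08 to 24.2 and from 7.82 to 23.9, with only 14 and 19 UMIs in the lowest quartile. Its quartile 2 already stood at 24.2 and 23.0. DPYSL3 went from 33.8 to 49.4 and from 28.3 to 30.2, the smallest step in SplitB. The quartiles between were not in order for DPYSL3, with 27.9 and 24.45 in SplitA and 29.4 and 23.7 in SplitB. The highest quartiles were also shallower, for STMN4 with median depths of 5250 and 5572 UMIs against 6972 and 7686 in the lowest.

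Part of the shared variation moved with the overall make-up of the cell. The mean residual of the 10 genes had an r of -0.23 and -0.27 with the log of the UMI total and of -0.31 and -0.30 with the share of UMIs from 84 ribosomal protein genes. MAP1B was the most related to that share, with -0.41 and -0.46, and STMN2 was nearly unrelated, with 0.06 and 0.02. UMI total, ribosomal share and mitochondrial share were also regressed out, an alternative added after the data had been seen. The median r over pairs was then 0.02 in both flasks, and 4 pairs in each reached 0.1. This regression was not run for pairs of other genes, so whether 4 pairs exceed the share over all genes is not known. DCX with DPYSL3 (0.24 and 0.14) and STMN2 with DCX (0.14 and 0.13) were then the only pairs at 0.1 or more in both flasks. Phase was not regressed out. Without cell make-up regressed out, STMN2 with DCX had an r of 0.08, 0.05 and -0.006 within G1, S and G2M cells of SplitA. In SplitB the values were 0.11, 0.01 and 0.04.

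The genes also differed in how they followed the cycle genes from cell to cell. STMN1 had an r of 0.23 and 0.27 with the mean residual of the S genes and of 0.26 and 0.28 with that of the G2M genes, in SplitA and SplitB. MAP1B was positive as well (0.16 and 0.17, then 0.23 and 0.23), and STMN2 negative (-0.25 and -0.19, then -0.24 and -0.21). MAP1B had passed none of the phase comparisons as reported, and it was the gene most related to ribosomal share. These r values were not corrected for cell make-up, and its part in them was not tested. DCX was weakly negative, from -0.08 to -0.04. The mean of the 10 genes had an r of 0.12 and 0.12 with the S genes and 0.14 and 0.13 with the G2M genes, which went down to 0.04 and 0.03, and 0.05 and 0.02, without STMN1. A higher mean of these genes therefore did not go with lower cycle gene levels in these cells.

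STMN2 taken alone did order the cells by cycle calls. In the quartile of cells with the least STMN2 for their depth, 22.7% of SplitA cells and 27.4% of SplitB cells were called G1, and in the highest quartile 62.2% and 63.5%, with exact binomial intervals of 55.5% to 68.6% and 57.8% to 69.0%. Summed G2M gene levels went from 4750 and 4659 CPM to 2370 and 2564. STMN1 showed no order over the same quartiles, with 1094 and 1064 in the lowest and 1084 and 1062 in the highest. DCX stood at 11.3 and 6.39 in the lowest and 35.4 and 27.8 in the highest, and GAP43 at 45.4 and 52.5 against 78.3 and 75.5. The cells with the least STMN2 were deeper, with medians of 7004 and 7208 UMIs against 5655 and 5977.

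DCX transcripts were concentrated in few cells. A DCX UMI was found in 64 SplitA cells and 89 SplitB cells, and the 22 and 30 cells with 2 or more held 62.2% and 57.6% of all DCX UMIs. Of the cells with a DCX UMI, 59.4% and 58.4% were called G1, against 39.6% and 41.0% of those without. They were deeper, with medians of 8198 and 8180 UMIs against 5998 and 6261, so the following levels are given within the deepest class of each flask, where 42 of 300 and 52 of 398 cells had a DCX UMI. Within that class they were still deeper, with medians of 9639.5 and 10372 UMIs against 8483 and 8910, and the part of depth in the following values was not tested. Cells were chosen here by DCX itself, and no test was made. S100A11 and THSD7A, given below, were picked for having the highest r with DCX in these same cells. Their higher levels in cells with DCX follow from that choice and are no separate evidence. S100A6 was picked in the same way for DPYSL3, which of the 10 genes had the highest r with DCX.

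In that class DPYSL3 stood at 34.9 and 30.3 CPM in cells without DCX and at 111 and 55.1 in cells with it. S100A11, a calcium-binding protein, stood at 77.4 and 113 without and 242 and 314 with DCX, its relative S100A6 at 286 and 326 against 456 and 640, and THSD7A, a membrane protein with thrombospondin repeats, at 40.0 and 36.0 against 101 and 110. CHGA, the granule protein chromogranin A, stood at 400 and 378 against 738 and 760. VIM, a mesenchymal-type marker, stood at 89.7 and 114 against 154 and 266. The adrenergic factor PHOX2A stood at 606 and 586 against 568 and 598, and CHGA, given above, is an adrenergic marker as well. The other markers of both kinds were not compared by DCX, so these values do not assign the cells with DCX to either kind. STMN2 was at 573 and 543 without and 694 and 778 with DCX, and STMN1 at 929 and 895 without and 612 and 711 with it. In this class 57.1% and 55.8% of the cells with DCX were called G1, against 29.5% and 35.5% of those without. Its G1 cells had less STMN1 and more STMN2 than its S and G2M cells in both flasks. The part of phase in all these values was not tested. Doublets of cells from the same flask carry 1 hashtag and could not be removed, and their part in these deep cells was not tested.

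**Figure D4:**
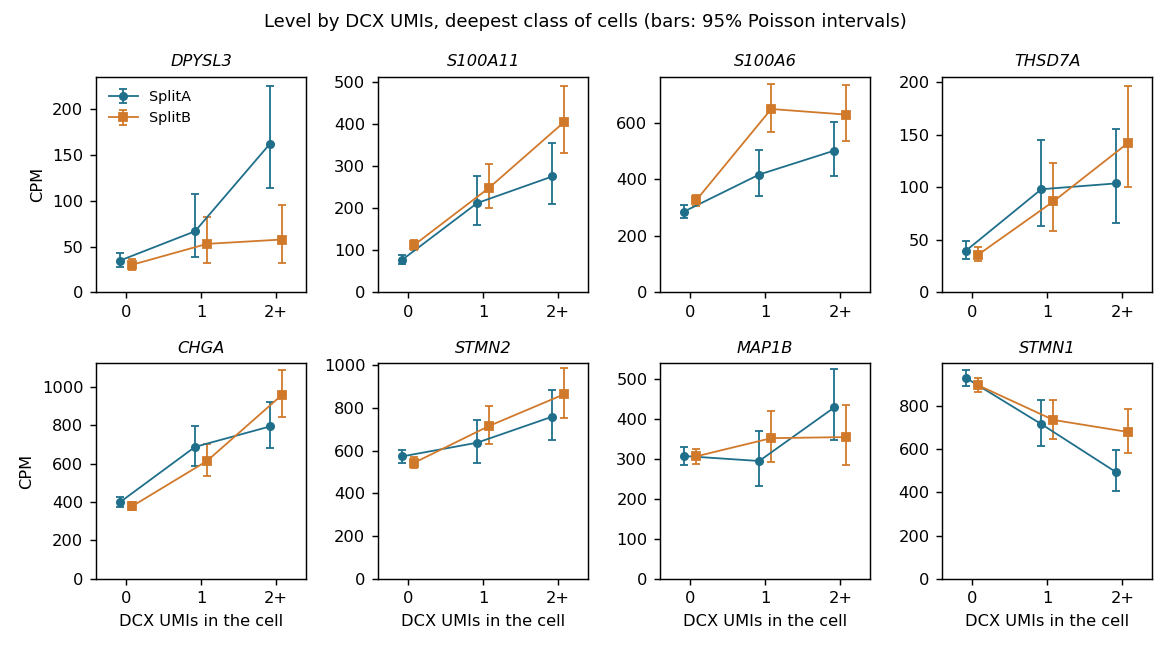
Level of 8 genes in CPM by the number of DCX UMIs in the cell (0, 1, or 2 and more), in the deepest class of cells of SplitA (circles) and SplitB (squares), with 95% Poisson intervals and axes from 0. DPYSL3, S100A11, S100A6, THSD7A and CHGA are higher in cells with DCX in both flasks and STMN1 is lower, while MAP1B goes from 307 to 429 in SplitA and from 307 to 355 in SplitB between cells with 0 and with 2 or more. THSD7A and S100A11 were picked for their r with DCX in these same cells, and S100A6 for its r with DPYSL3. More of the cells with DCX were called G1, and phase was not held constant.

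The genes most like the mean of the 10 were led by CALM2, which encodes calmodulin. An r of 0.2 or more with their mean residual in both flasks was reached by 17 of 5712 genes (0.298%). All 17 had at least 0.5 UMI per cell, a level that 1392 genes had, some of the 10 among them. Rarer genes reach such an r less easily, so the share over 5712 genes is not matched for level. The leading 10 were CALM2 (0.33 and 0.32), TMSB4X, TUBA1B, CCND1, TMSB10, LGALS1, TUBA1A, ACTB, MYL6 and TUBB2B, among which are actin-binding thymosins, actin, a myosin light chain and 3 tubulins. An r of -0.2 or less was found for 45 genes (0.788%), and the lowest 10 were all ribosomal protein genes, from RPS18 (-0.38 and -0.37) to RPL39 (-0.30 and -0.32). All 45 also had at least 0.5 UMI per cell. With STMN1 taken out of the mean, a change made after the data had been seen, 7 and 23 genes passed these limits.

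Single members had different closest genes. STMN1 was closest to HMGB1, a chromatin protein (0.55 in both flasks), and then to PTMA, prothymosin (0.45 and 0.43). STMN2 was closest to MLLT11 (0.32 and 0.33) and LGALS1 (0.29 and 0.29), and its lowest values, named after they had been seen, were with the histone genes H2AZ1 (-0.33 and -0.25) and H4C3 (-0.31 and -0.27). MAP1B was closest to TUBA1A (0.34 and 0.37) and ACTB (0.34 and 0.33), and STMN4 to CREB5 (0.22 and 0.23) and CCND1, cyclin D1 (0.19 and 0.22). DCX was closest to THSD7A (0.31 and 0.26) and S100A11 (0.30 and 0.23), and DPYSL3 to S100A6 (0.21 and 0.23) and S100A11 (0.21 and 0.28). The closest genes of STMN3, CRMP1, BASP1 and GAP43 reached at most 0.16, and that of GAP43 was STMN1.

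In the edgeR fit, other genes of axon growth did not share a direction along the cycle either. Of 39 such genes in 7 lists, 34 had enough UMIs for the test, and 6 were higher and 2 lower in S than in G1, with a median log2 difference of 0.04. In G2M against G1, 9 were higher and 5 lower, with a median of 0.10. Of all genes tested, 10.5% were higher and 9.42% lower in S, and 15.2% and 15.1% in G2M, with median log2 differences of -0.001 and 0.03. The DESeq2 test called only TUBA1A (higher) in S, with 0 lower (1 at an unadjusted p under 0.05), and in G2M it called DPYSL2, DPYSL5, ENAH, MARCKS and TUBA1A higher and 0 lower (2 unadjusted). The other calls of these 7 lists against G1 were made by edgeR and not by DESeq2. The calls against G1 that DESeq2 made, and those left after thinning, were all of higher levels. Of the relatives of CRMP1 and DPYSL3, DPYSL2 (CRMP2) rose by 0.42 in S (adjusted p = 0.000152) and 0.51 in G2M, DPYSL5 (CRMP5) rose by 0.64 (adjusted p = 0.000129) and 0.73, and DPYSL4 passed in neither, with 0.40 in S (adjusted p = 0.131) and -0.06 in G2M (adjusted p = 0.851).

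Among microtubule-associated proteins, 1 of 6 was higher and 2 were lower in G2M than in G1. MAPT, which encodes tau, had a log2 change of -1.08 (adjusted p = 0.000551) and MAP1A, the relative of MAP1B, of -0.60 (adjusted p = 0.0297), while MAP2, the dendritic protein, rose by 0.42 (adjusted p = 0.00704). Of 8 growth cone membrane and actin proteins tested, MARCKS, which like GAP43 gathers phosphoinositides, rose by 0.64 in G2M (adjusted p = 9.07e-15), ENAH also rose by 0.60, and RUFY3 fell by 0.46 (adjusted p = 0.0173). Of 6 guidance receptors and adhesion proteins tested, NCAM1 rose by 0.37 in G2M (adjusted p = 0.00206) and none fell.

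The tubulins TUBA1A and TUBB2B rose in G2M by 0.29 and 0.26 and TUBB2A fell by 0.44 (adjusted p = 0.0252). TUBB3, the classic neuronal tubulin, had 6.49 and 4.46 CPM and passed in neither phase. Overlap with other counted genes on the same strand was not checked for TUBB3 or the other genes of these lists. The low TUBB3 count therefore does not show how much of its transcript the cells held. PRPH, peripherin, a filament of peripheral neurons, had log2 changes of -1.57 in S (adjusted p = 0.00253) and -1.64 in G2M (adjusted p = 0.000718), from levels of 7.52 and 5.21 CPM, and NEFL, NEFM and INA did not pass. Of the neuronal ELAV proteins, which bind and stabilize mRNA, ELAVL2 rose by 1.00 in S (adjusted p = 0.000918) and 1.19 in G2M (adjusted p = 1.55e-05), and ELAVL3 and ELAVL4 did not pass.

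CDK inhibitors, which hold cells in G1, were counted apart. CDKN1C (p57) had a log2 change of -1.89 in S (adjusted p = 1.28e-19) and -1.36 in G2M, steeper than those of STMN2 in value, CDKN1A (p21) fell by 0.71 in G2M, and CDKN1B (p27) rose by 1.05. The r of CDKN1C with STMN2 was 0.02 in SplitA and 0.03 in SplitB.

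**Figure D5:**
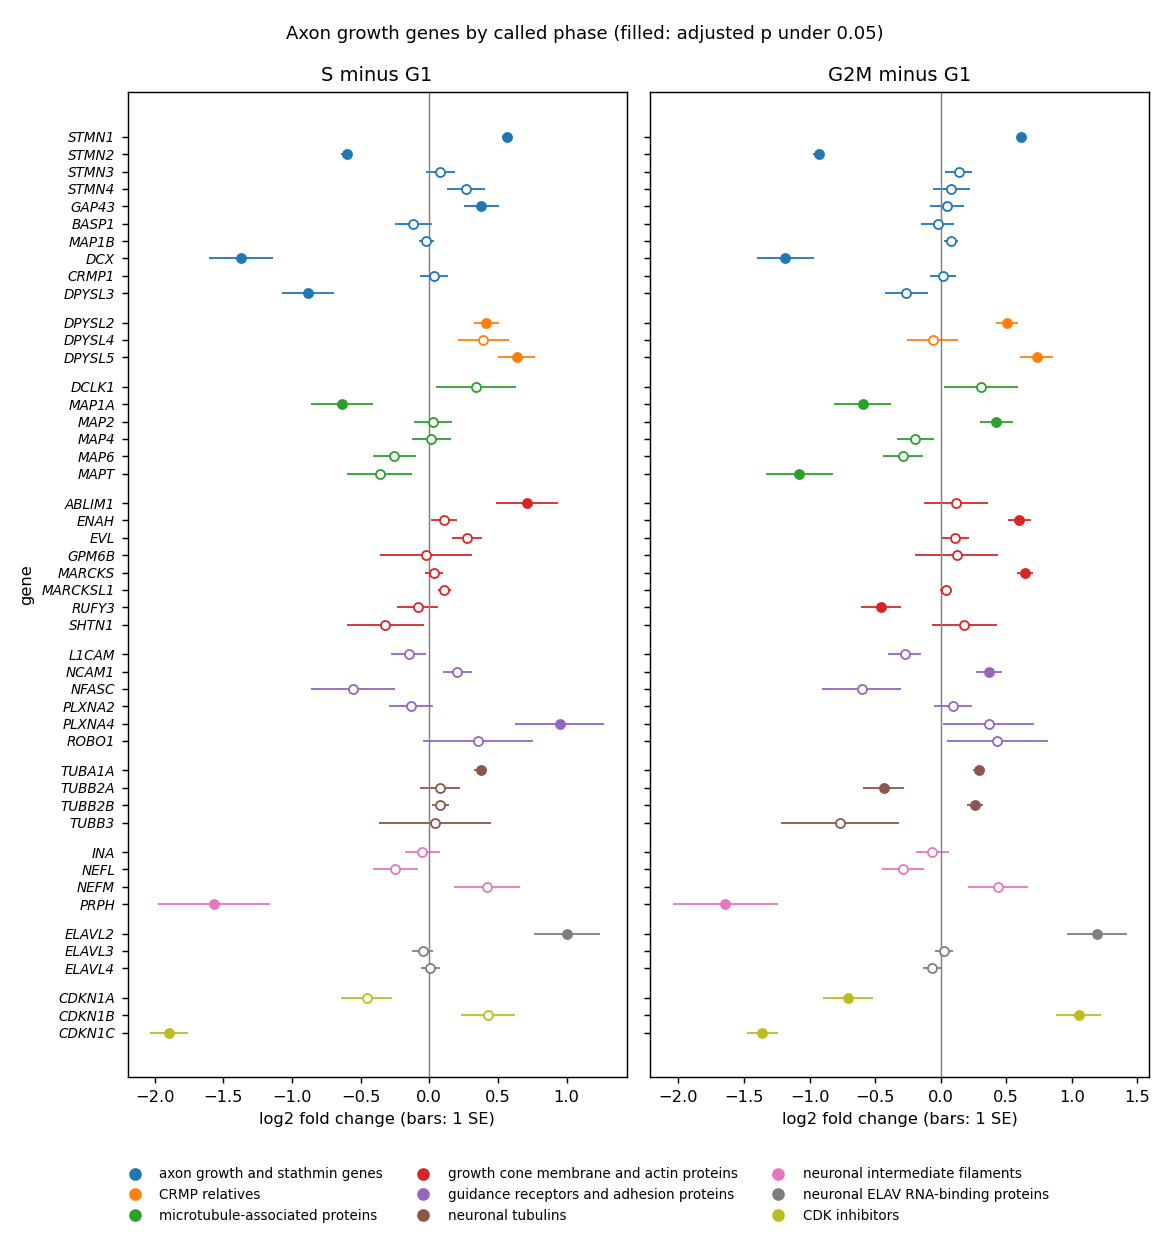
Log2 fold change of the 10 genes and of 37 further axon growth and CDK inhibitor genes, S minus G1 (left) and G2M minus G1 (right), from the edgeR fit, with bars of 1 SE and filled points for an adjusted p under 0.05. In G2M minus G1, filled points lie on both sides of 0 in several lists, and the largest falls are those of PRPH, CDKN1C, DCX and MAPT. In S minus G1, only the 10 genes have filled points on both sides, CDKN1C, PRPH and DCX fall most, and MAPT is not filled.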

How the data were processed

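Cells of both flasks were pooled into an mRNA library and a hashtag library. Per the submitters' processing notes and the study's methods, the authors aligned reads to GRCh38 (hg38) with STAR 2.7 in Cell Ranger 4.0.0 and deposited the filtered matrix of UMI counts, with no normalization, for 33538 gene identifiers and 2 hashtags in 2879 cells. The annotation version is not given in the sources used here. Of the identifiers, 33113 were paired with a symbol by a reference table. Hashtag limits follow the study's supplementary code; an alternative added its other cell filters with the mitochondrial share taken over 13 mitochondrial genes, and left out the 174 kept cells at 15% or more. The study describes far lower mitochondrial shares under the same limit, so this alternative is unlike its own filter. The hashtags marked 95 cells as multiplets across flasks, and multiplets within a flask remained, so an alternative left out cells over the 95th percentile of UMIs. Phases were called with Seurat 5.3.0 (CellCycleScoring, cc.genes) in R 4.3.3, and UMI counts summed per flask and phase were tested with edgeR 4.0.16 (TMM, filterByExpr, quasi-likelihood, flask as block), or DESeq2 1.42.0 as an alternative, at an adjusted p of 0.05. Residuals took 1 proportion per gene, the cell's UMI total and a variance of the mean plus its square over 100. They and the edgeR step were tested on simulated data. Residuals, intervals and plots used Python 3.11.15 with matplotlib 3.10.9, pandas 2.3.3, numpy 2.4.6 and scipy 1.17.1. Kept cells held 1801 to 27205 UMIs. Poisson and exact binomial intervals are at 95% and cover counting error only. The genes, the other lists and the tests were chosen with earlier results of these data known. Genes named outside the 10 were those of the lists, the 10 highest and 10 lowest in r with their mean residual, and for each gene the 2 with the highest r. The replicate number pairs the sums by flask, since the phases of a flask come from the same culture. One adrenergic marker chosen with the others is not reported here.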

Additional observations from a re-analysis of the deposited data

Results flagged for a closer look

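Transcripts of the 10 genes were also present in droplets that entered no comparison. In the 690 singlets with under 1000 genes they summed to 2923 CPM in SplitA and 2711 in SplitB, where kept cells held 2610 and 2551. These droplets had medians of 1460.5 and 1355 UMIs and median mitochondrial shares of 32.6% and 36.7%, against 8.64% and 8.82% in kept cells. The make-up of the sum differed from that of kept cells. MAP1B stood at 1008 and 996 CPM against 361 and 374, STMN2 at 564 and 420 against 708 and 677, and STMN1 at 777 and 834 against 1105 and 1088. DCX had 3 and 2 UMIs in all. Per 1000000 UMIs that are not mitochondrial the differences changed, with the sum at 4290 and 4188 against 2875 and 2817, MAP1B at 1480 and 1539 against 398 and 413, STMN2 at 828 and 648 against 780 and 747, and STMN1 at 1140 and 1288 against 1217 and 1202.

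In the 95 multiplets the genes summed to 2127 CPM, with STMN1 at 751 and DCX at 3 UMIs. No multiplet was assigned to a flask, so these values were not compared with a control.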

How the results depend on the processing

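No alternative ended the rise of STMN1 or the fall of STMN2 against G1, although thinning moved the changes in S to 0.286 and -0.385 (0.57 and -0.60 as reported) and that of DCX in G2M to -2.005 (-1.18), and none of the 10 genes differed by 0.32 or more on the log2 scale between flasks in any. Thinning to 2000 UMIs gave 1 higher gene in S (2 as reported) and 2 in G2M (1), and left 3 higher and 0 lower of the 34 further genes in S and 5 and 0 in G2M (6, 2, 9 and 5 as reported). The DESeq2 test gave 1 higher gene in S and 1 lower in G2M, and 1 higher and 0 lower further genes in S and 5 and 0 in G2M. At an unadjusted p under 0.05 the counts of 0 were 1 and 2 with DESeq2 and 0 and 2 after thinning, which leaves fewer UMIs to test. DESeq2 called 617 genes of all in S against G1 where edgeR called 2100, 977 against 3183 in G2M, and 160 against 784 between G2M and S. The lower further genes in S were 1 under a limit of 15% on the mitochondrial share (the cell filters), the hashtag limit of 100 and the loss of the deepest cells. Between G2M and S, 0 of the 10 were higher under those 3 settings, thinning, the updated cycle list, DESeq2, no filter on low counts and no replicate block, and 2 were lower under the cell filters. At an unadjusted p under 0.05, 0 (DESeq2) to 3 of the 10 were higher in these settings. Further genes between G2M and S were 1 higher under thinning and DESeq2, 4 under the updated list, and 0 lower under the hashtag limit, the loss of the deepest cells, DESeq2 and no filter (0 for DESeq2 and 5 to 7 for the others at an unadjusted p under 0.05). Pairing by flask, the replicate block, changed no other call.

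Thinning turned the sign of small differences that had not passed, to 0.062 (BASP1), 0.076 (MAP1B) and -0.067 (CRMP1) in S, and to -0.008 (STMN3), 0.12 (STMN4), -0.23 (BASP1), -0.53 (DCX) and 0.17 (CRMP1) between G2M and S. In G2M against G1, STMN4 turned to -0.048 under the hashtag limit and -0.023 under the updated list, BASP1 to 0.01 and CRMP1 to -0.015 under the cell filters, and CRMP1 to -0.003 with DESeq2 size factors.

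The median r over pairs was 0.013 thinned, 0.036 on log-normalized values, 0.021 with cell make-up regressed out and 0.18 as Spearman's rho, where residuals of cells without a UMI rank by depth for every gene alike. The r of the mean with the S genes, 0.12 over both flasks, was 0.082 under the cell filters, 0.114 with the hashtag limit, 0.088 thinned, 0.052 on log-normalized values, 0.129 as rho and 0.032 without STMN1. With the G2M genes, 0.13, it was 0.117, 0.086 thinned, 0.106 log-normalized, 0.173 as rho and 0.035 without STMN1. Genes past 0.2 numbered 1 thinned, 3 log-normalized, 2745 as rho and 7 without STMN1 (17 as reported), and those past -0.2 numbered 3, 0 log-normalized and 23 without STMN1 (45). With 1 flask at a time these counts were 20 to 23 and 47 to 54, and the median r was 0.039 to 0.052.

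Depth limits the rare genes most, since DCX rests on 250 UMIs in all and DPYSL3 on 421, and both flasks are from the same line and experiment.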

Other observations

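MAP1B followed the mitochondrial share among kept cells. It stood at 339 CPM in SplitA cells and 341 in SplitB cells with a mitochondrial share under 10%, at 350 and 394 in those from 10% to under 15%, and at 900 and 879 in the 70 and 104 cells at 15% or more, whose median depths were 2704 and 2837 UMIs. STMN1 stood at 1142 and 1144 in the first class and at 1154 and 1151 in the last, and STMN2 at 711 and 686 against 631 and 634. Per 1000000 UMIs that are not mitochondrial, MAP1B went from 368 and 370 to 1197 and 1188, STMN1 from 1242 and 1245 to 1535 and 1555, and STMN2 from 773 and 746 to 840 and 857, so the direction of STMN2 depends on the scaling. The r of MAP1B with the mitochondrial share was 0.29 and 0.31 over cells, the highest of the 10 genes in both flasks. The part of cell damage, of nuclear or cytoplasmic loss and of free RNA in these values was not tested.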
